A study of Mus musculus with 11 samples.

Results

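The genes described here are 33 chaperones, folding enzymes, sensors and degradation factors of the endoplasmic reticulum (ER) and its unfolded protein response, chosen by name and taken from 18193 genes with a single symbol on the array. Each gene was read from its brightest probe set, and all 33 passed the filter on dim signal that left 15623 genes to test. Expression was measured on 11 Affymetrix arrays of 3T3-L1 adipocytes, a mouse cell line differentiated in culture from preadipocytes. The CI group (n = 2) mimicked hyperinsulinemia with 4 additions of 10 nM insulin over a day and the next morning. The TNF group (n = 3) had 2 ng/ml of the inflammatory cytokine TNFα for 4 days as a model of low-dose inflammation. The DEX group (n = 3) had 20 nM dexamethasone, a synthetic glucocorticoid, for 8 days as a model of glucocorticoid-induced insulin resistance. The control group (n = 3) was labelled as having no treatment. An ethanol carrier of 0.01% is named as the control for dexamethasone, but the control arrays carry no such label, so it is unclear whether those cells received it. All groups share the line and the day after differentiation. Nothing in the labels says that arrays of a group came from separate cultures, so the spread behind each p-value may be only technical.

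Secreted and membrane proteins fold in the ER, where chaperones of the Hsp70 and Hsp90 families, lectin chaperones and disulfide enzymes act on them, and proteins that fail to fold are sent back to the cytosol for degradation. When unfolded protein builds up, the sensors encoded by Ern1, Eif2ak3 and Atf6 slow translation and raise transcription of these same genes, in part through the transcription factors XBP1 and ATF6. Adipocytes secrete large amounts of protein such as adiponectin, whose assembly uses the oxidase encoded by Ero1l.

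A DNA sequence through which ATF6 and XBP1 act is the ER stress element, made of CCAAT and CCACG with 9 bases between them. A shorter form, element II, has ATTGG and CCACG with 1 base between them. Promoter windows from RefSeq (GRCm38.p6, 250 bases before to 50 after each gene's start) matched 28 of the 33 genes, and Atf6, Derl1, Manf, Sec61a1 and Hyou1 were not matched. On either strand, the exact ER stress element was found for 10 of the 28 genes (35.7%) and in 39 of all 32851 windows (0.119%). The first count is of genes and the second of windows, which include those of these genes. Since the genes were chosen by name as genes of this response, the shares are a description and no test of enrichment. The 10 genes were Hspa5, Hsp90b1, Calr, Canx, Pdia6, Ero1lb, Dnajc3, Creld2, Syvn1 and Derl3. Element II was found for Dnajb11 and Herpud1 (7.14% of the matched genes) and in 12 of all windows (0.0365%). The letters TGACGTGG, a form of the unfolded protein response element, were found for 0 of the 28 genes and in 222 of all windows (0.676%). A match of letters is a description and not a shown binding site. Shown here, 5′ to 3′ on the gene's strand with 30 bases on each side, are the elements of 6 genes: those with the largest decrease among genes that were lower in DEX than in CI arrays and held an element. Capitals mark both parts of each element.
Dnajc3: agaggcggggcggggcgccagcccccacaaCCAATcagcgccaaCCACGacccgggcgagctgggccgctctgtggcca
Hspa5: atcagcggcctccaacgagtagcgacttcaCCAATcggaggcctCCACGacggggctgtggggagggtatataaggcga
Syvn1: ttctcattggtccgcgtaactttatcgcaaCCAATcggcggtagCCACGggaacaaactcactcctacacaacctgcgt
Dnajb11: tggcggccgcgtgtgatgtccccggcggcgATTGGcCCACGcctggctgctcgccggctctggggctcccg
Ero1lb: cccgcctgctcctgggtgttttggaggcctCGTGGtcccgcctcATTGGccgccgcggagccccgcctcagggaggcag
Canx: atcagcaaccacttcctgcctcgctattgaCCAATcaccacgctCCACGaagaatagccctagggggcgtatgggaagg
The stretches lie at chr14:118937797-118937875, chr2:34771995-34772073, chr19:6046502-6046580, chr16:22857822-22857892 and chr13:12565652-12565730 on the plus strand and at chr11:50325770-50325848 on the minus strand. The element began 105 bases before the start of Dnajc3, 65 before Hspa5, 44 before Syvn1, 201 before Ero1lb, where it reads in reverse, and 145 before Canx, and 7 bases after the start of Dnajb11.

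**Figure D1:**
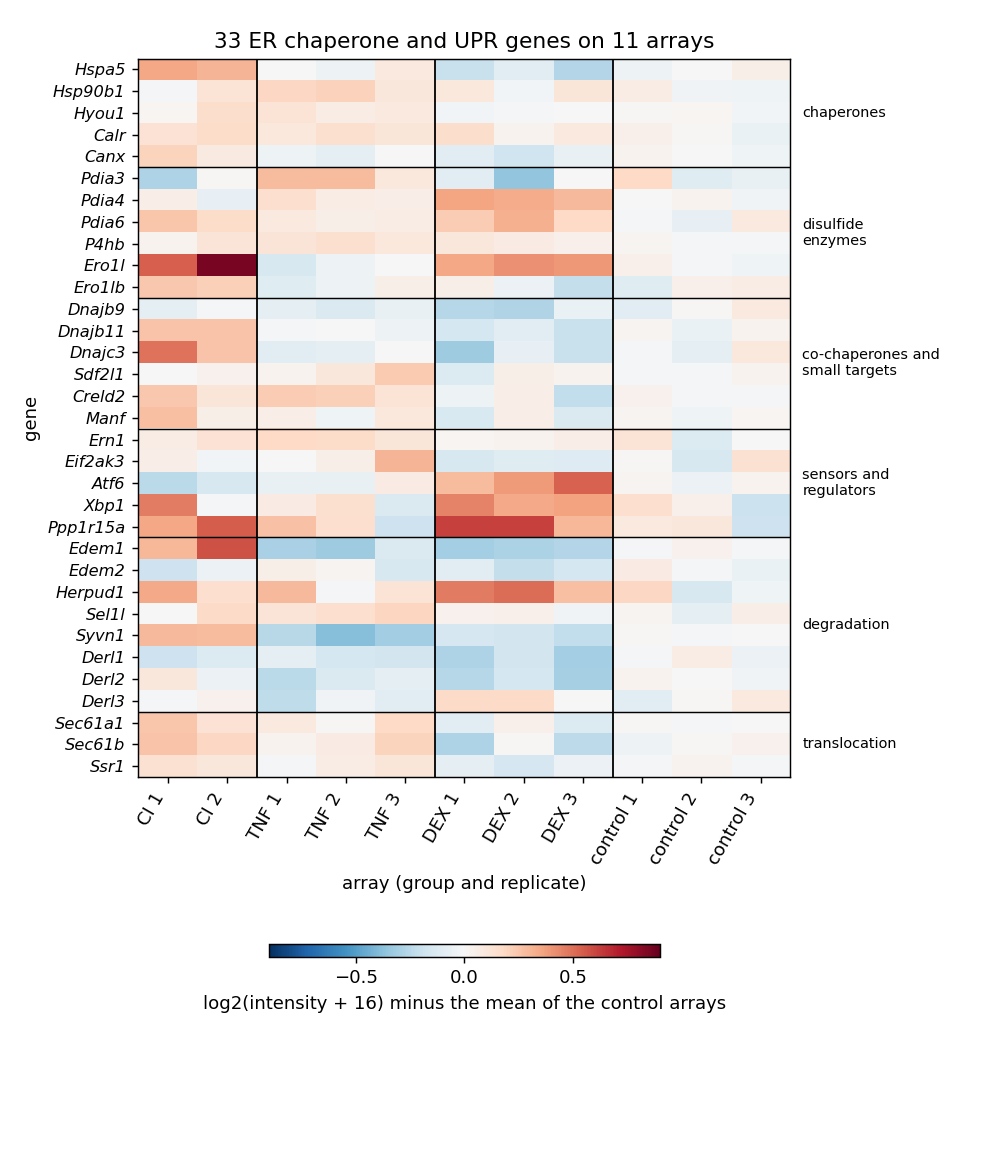
Each row is 1 of the 33 genes, grouped by role, and each column 1 array; colour gives log2(intensity + 16) minus the mean of the control arrays, red for higher and blue for lower. Ero1l, Ppp1r15a and Edem1 are red on both CI arrays, and Edem1 and Syvn1 are blue on every TNF and DEX array.

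Array medians were 124.5 to 129.5, and precision is limited by there being 2 or 3 arrays in a group. The actin probe sets at the 3′ and 5′ ends had a ratio of 1.82 and 1.43 in the CI arrays, against 1.49 to 1.58 in control. That ratio was 1.44 to 1.69 in TNF and 1.49 to 1.73 in DEX, and that of Gapdh was 1.04 to 1.11 over all arrays. The 18 spiked-in hybridization probe sets were all below their control mean on both CI arrays (median log2 difference -0.14 and -0.33), on TNF replicate 3 (-0.27) and on DEX replicate 2 (-0.20). Markers of other cells also differed between groups. The summed intensity of 8 preadipocyte and fibroblast markers was 34838 to 36054 in CI arrays, 48261 to 51049 in TNF and 32459 to 37064 in DEX, against 39785 to 45589 in control. That of 8 adipocyte markers was 102773 to 105098 in CI, 88029 to 90381 in TNF and 95259 to 101932 in DEX, against 102561 to 104109 in control. For 8 macrophage markers it was 3571 to 3834 in CI, 5581 to 6048 in TNF and 3066 to 3573 in DEX, against 4272 to 4441 in control. The defining leukocyte markers Ptprc (22.3 to 28.2 over all arrays) and Itgam (45.6 to 57.7) had means under the dim filter, an intensity of 51.7. By the test described below, 0 fibroblast markers of 8 were higher and 5 lower in CI, 4 and 0 in TNF, and 2 and 4 in DEX. Of 8 adipocyte markers, 1 was higher and 0 lower in CI, 0 and 4 in TNF, and 1 and 4 in DEX, and of 6 macrophage markers tested, 1 and 2, 2 and 0, and 1 and 2. The macrophage markers did not move together in CI or DEX, so their sum is no measure of macrophage content. Log2 fold changes of Mpeg1, Cd14 and Lyz2 were 0.57, -0.68 and -0.64 in CI and -1.67, 0.90 and -0.62 in DEX. The shares over all genes tested were 8.38% higher and 8.88% lower in CI, 13.9% and 11.2% in TNF, and 14% and 13.6% in DEX. The part of these measures in the results below was not tested, and in such bulk samples fewer cells of a type cannot be told apart from less RNA per cell.

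The comparison of CI with control asked how repeated insulin left these genes. Of the 33 genes, 8 were higher in CI arrays and 0 lower at an adjusted p under 0.05 (limma, Benjamini-Hochberg over all 15623 genes). Over all genes tested, 8.38% were higher and 8.88% lower. The 8 genes were Hspa5, Pdia6, Ero1l, Dnajb11, Dnajc3, Ppp1r15a, Edem1 and Syvn1, which span the chaperones, the disulfide enzymes, the co-chaperones, the eIF2α phosphatase and the degradation genes. At an unadjusted p under 0.05, 15 were higher (14.6% of all genes) and 2 lower (14.5%). The median log2 fold change of the 33 was 0.14, against 0.01 for all genes, and 27 lay above 0. In 18 of the 33 every CI array exceeded every control array (24% of all genes), and in 2 every CI array was lower (22%). Hspa5, Ero1l, Dnajb11 and Edem1 passed in all 20 alternative settings, and without CI replicate 1 the count was 5 higher.

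TNF against control asked the same of sustained low-dose inflammation. In TNF arrays 0 of the 33 genes were higher (13.9% of all genes) and 2 were lower (11.2%), by the same limma test. Both of the lower genes, Edem1 and Syvn1, act in degradation. At an unadjusted p under 0.05, 6 were higher (19% of all genes) and 4 lower (18%). The median was 0.05, against -0.01 for all genes. Every TNF array exceeded every control array for 8 genes (21.8% of all genes) and lay below it for 4 (21.3%). Fitted with only the TNF and control arrays, Hsp90b1 (0.16, adjusted p = 0.0469) and Creld2 (0.19, adjusted p = 0.022) passed as higher, so the count of 0 depends on the setting. Edem1 did not pass without control replicate 2 (adjusted p = 0.0708), TNF replicate 1 (0.0676) or TNF replicate 2 (0.0768), which left 1 gene lower.

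DEX against control asked the same of long glucocorticoid exposure. In DEX arrays 7 of the 33 were higher (14% of all genes) and 7 lower (13.6%). Pdia4, Pdia6, Ero1l, Atf6, Xbp1, Ppp1r15a and Herpud1 were the higher ones. Hspa5, Dnajb9, Dnajb11, Edem1, Syvn1, Derl1 and Derl2 were the lower ones. At an unadjusted p under 0.05, 7 were higher (20.2% of all genes) and 10 lower (17.7%). The median was -0.07, against 0.02 for all genes. Every DEX array exceeded every control array for 8 genes (21.8% of all genes) and lay below it for 9 (18.7%). The count of lower genes was 4 without control replicate 3, without DEX replicate 1 or without DEX replicate 3. All 3 comparisons share the control arrays. Counted over them, 18 genes passed in none, 8 in 1, 5 in 2 and 2, Edem1 and Syvn1, in all 3. The same tally was not made over all genes, so these counts only describe the 33.

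**Figure D2:**
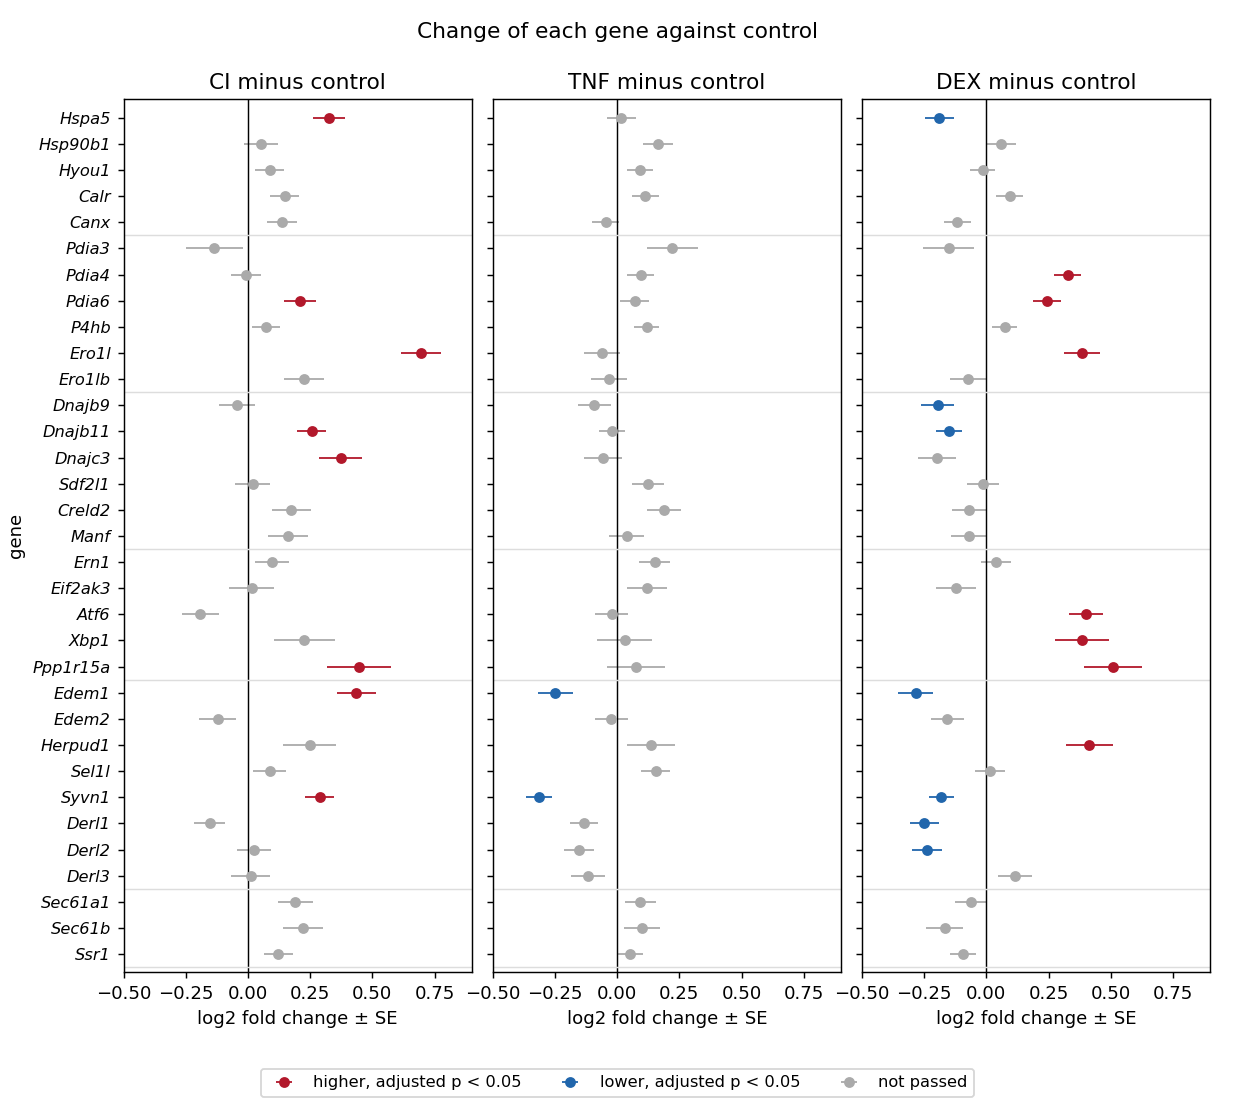
Log2 fold changes against control with their standard errors for the 33 genes, in CI, TNF and DEX from left to right; filled red and blue points passed at an adjusted p under 0.05 and grey points did not. The CI panel has 8 red points and no blue one, the TNF panel 2 blue points, and the DEX panel 7 of each.

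Among the chaperones, Hspa5 encodes BiP, the Hsp70 of the ER that also binds the stress sensors. Its intensity was 9985 and 9706 in the CI arrays, 7890.5, 7625 and 8353 in TNF and 6839, 7329 and 6525 in DEX, against 7599, 7839 and 8138 in control. The CI arrays were the highest and the DEX arrays the lowest, with no overlap with control in either case, while the TNF arrays overlapped control. The log2 fold change was 0.33 (SE 0.0654, adjusted p = 0.00321) in CI, 0.02 (SE 0.0585, adjusted p = 0.859) in TNF and -0.19 (SE 0.0585, adjusted p = 0.0255) in DEX, so the CI arrays stood at 1.25 times the control on the linear scale. The DEX call was lost without control replicate 2 (adjusted p = 0.064), control replicate 3 (0.0974), DEX replicate 1 (0.0649) or DEX replicate 3 (0.107), and with its probe sets averaged (-0.12, adjusted p = 0.0543). The other 4 chaperones passed in no comparison with control. Hsp90b1 (GRP94, the ER Hsp90) had 0.05, 0.16 and 0.06 in CI, TNF and DEX, and Hyou1, which exchanges nucleotide on BiP, had 0.09, 0.09 and -0.02. The lectin chaperones Calr and Canx had 0.15 and 0.14 in CI, 0.11 and -0.05 in TNF, and 0.09 and -0.12 in DEX. With its probe sets averaged, Canx passed as lower in DEX (-0.20, adjusted p = 0.00832).

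Among the disulfide enzymes, Ero1l, the oxidase that recharges protein disulfide isomerase, had the largest log2 fold change of the 33 genes in CI. Its intensity was 4904 and 6106 in the CI arrays, 3046, 3265 and 3386 in TNF and 4305, 4489 and 4429 in DEX, against 3487, 3351 and 3279 in control. Both CI arrays lay above all DEX arrays, all DEX arrays lay above control, and TNF overlapped control. The log2 fold change was 0.70 (SE 0.0806, adjusted p = 5.27e-05) in CI and 0.38 (SE 0.0721, adjusted p = 0.000878) in DEX, or 1.62-fold and 1.31-fold, and -0.06 (SE 0.0721, adjusted p = 0.567) in TNF. Its other 2 probe sets, read on their own, gave 0.81 and 1.05 in CI and 0.47 and 0.37 in DEX, and all 4 values passed. The related oxidase Ero1lb was dim, at 217 and 213 in the CI arrays, 167, 175 and 189 in TNF and 189, 174 and 154 in DEX, against 167, 188 and 191 in control. It passed against control in none of the groups (0.23 in CI, adjusted p = 0.0703), although both CI arrays lay above the control arrays. Ero1lb did pass in CI with only the CI and control arrays (adjusted p = 0.047) or without DEX replicate 3 (0.0433).

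Pdia6, an isomerase that also binds the sensor encoded by Ern1, was at 1980.4 and 1860.02 in the CI arrays, 1768, 1723 and 1737 in TNF and 1951, 2072 and 1884 in DEX, against 1641, 1577 and 1764 in control. CI and DEX arrays lay above control and TNF overlapped it. Against control the log2 fold change was 0.21 (SE 0.0648, adjusted p = 0.0384) in CI and 0.24 (SE 0.058, adjusted p = 0.00524) in DEX. The CI call held in 10 of 20 settings, and left out in turn control replicates 1 (0.0953) and 2 (0.138), CI replicates 1 (0.274) and 2 (0.063) and TNF replicates 1 (0.0507) and 2 (0.0519) ended it, with the adjusted p in parentheses. It was also lost with median centring (0.0588), only the CI and control arrays (0.0617), the replicate number as a block (0.0546) or its probe sets averaged (0.0661). The DEX call was lost with the probe sets averaged (0.05, adjusted p = 0.484). Pdia4, another isomerase, was at 1017 and 927 in the CI arrays, 1088, 1023 and 1020.1 in TNF and 1253, 1238 and 1199 in DEX, against 976, 997 and 957 in control. The DEX arrays were the highest with no overlap, and the CI arrays lay on both sides of the control values. The log2 fold change in DEX was 0.33 (SE 0.0542, adjusted p = 0.000294), and in CI it was -0.01 with a 95% interval of -0.14 to 0.12. Pdia3, which works with the lectin chaperones, had -0.13 in CI, 0.22 in TNF and -0.15 in DEX, and P4hb, protein disulfide isomerase itself, had 0.07, 0.12 and 0.07, and neither passed.

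**Figure D3:**
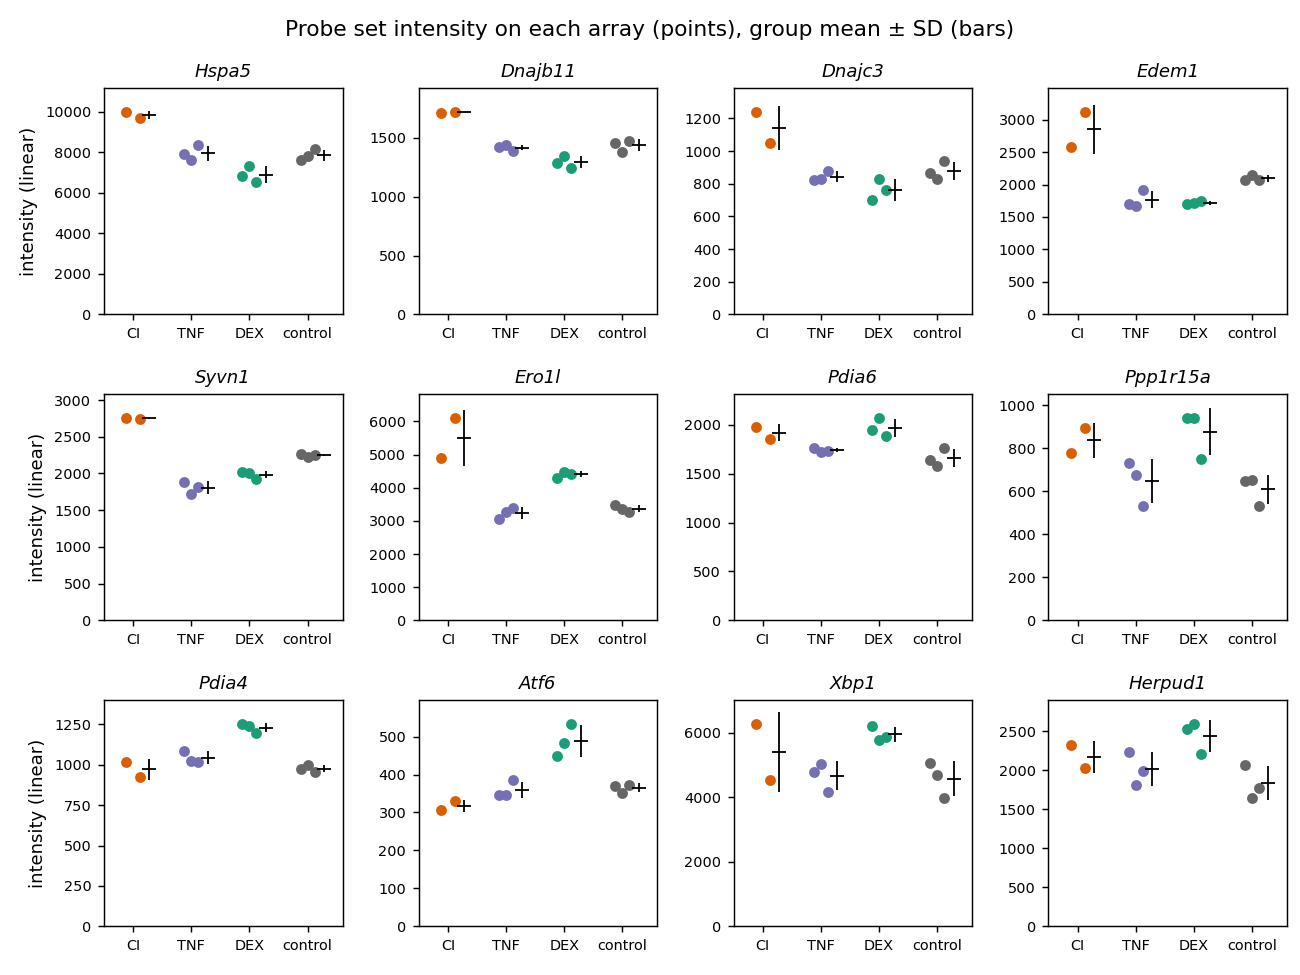
Intensity of 12 genes on each array (points) with the group mean and SD (bars), on linear axes that start at 0, with CI, TNF, DEX and control from left to right. In the top row and Syvn1 the CI mean is above the control mean and the DEX mean below it, while Pdia4, Atf6, Xbp1 and Herpud1 are highest in DEX.

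Co-chaperones bring substrates to BiP and set off its ATPase. In CI, Dnajb11 and Dnajc3 were higher and Dnajb9 was not, where 8.38% of all genes were higher. Dnajb11, which binds unfolded substrates, was at 1716 and 1720.5 in the CI arrays, 1424, 1436 and 1391 in TNF and 1285, 1347 and 1248 in DEX, against 1460.2, 1379 and 1471 in control. The CI arrays were highest and the DEX arrays lowest, both apart from control. Fitted log2 fold changes were 0.26 (SE 0.0578, adjusted p = 0.00673) in CI, -0.02 in TNF and -0.15 (SE 0.0517, adjusted p = 0.0419) in DEX. The DEX call held in 10 of 20 settings and ended without control replicate 1 (0.114) or 3 (0.134), CI replicate 1 (0.0504) or 2 (0.0504), TNF replicate 1 (0.055) or 2 (0.0547), or DEX replicate 1 (0.0946) or 3 (0.137), the adjusted p in parentheses, and also with only the DEX and control arrays (0.0819) or the replicate number as a block (0.0554). Dnajc3, a co-chaperone first described as a kinase inhibitor, was at 1239 and 1049 in the CI arrays, 822, 828 and 880.3 in TNF and 698, 831 and 763 in DEX, against 867, 828 and 939 in control. Both CI arrays lay above control, and the TNF and DEX arrays overlapped it. The log2 fold change was 0.37 (SE 0.0851, adjusted p = 0.00718) in CI, which did not pass without CI replicate 1 (adjusted p = 0.139) or with its probe sets averaged (0.15, adjusted p = 0.131), and -0.20 (SE 0.0761, adjusted p = 0.0668) in DEX. Without DEX replicate 2, Dnajc3 passed as lower in DEX (-0.26, adjusted p = 0.026). Of the other 4 Dnajc3 probe sets, 1 was higher in CI (0.40) and the others had 0.05, -0.03 and -0.07.

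Dnajb9, a co-chaperone that also restrains the sensor encoded by Ern1, was at 4642 and 4869 in the CI arrays, 4639.97, 4474 and 4686 in TNF and 4109, 4064 and 4693 in DEX, against 4577, 4941 and 5209.8 in control. DEX replicate 3 overlapped the lowest control array, and the CI arrays lay within the control range. The DEX log2 fold change was -0.20 (SE 0.0659, adjusted p = 0.0387), and it did not pass without control replicate 2 (0.0999) or 3 (0.154) or without DEX replicate 1 (0.127) or 2 (0.128), or with only the DEX and control arrays (0.0728). The smaller targets Sdf2l1, a partner of Dnajb11, Creld2 and the secreted factor Manf passed against control in none of the groups. In CI they had 0.02, 0.17 and 0.16, in TNF 0.12, 0.19 and 0.04, and in DEX -0.01, -0.07 and -0.07.

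Of the sensors, Atf6, which is cut to release a transcription factor, was at 306 and 329 in the CI arrays, 347, 347 and 385 in TNF and 449, 482 and 534 in DEX, against 371, 351 and 373 in control. Every DEX array lay above every other array, and both CI arrays lay below control. In the fit the log2 fold change was 0.40 (SE 0.0669, adjusted p = 0.000325) in DEX, -0.19 (SE 0.0748, adjusted p = 0.0966) in CI and -0.02 in TNF. Its probe sets did not move together. The other 2 gave 0.23 (passed) and -0.05 in DEX, and 0.20 and 0.19 in CI. The kinase sensors Ern1 (IRE1α) and Eif2ak3 (PERK) passed in no comparison with control. Ern1 had 0.10 in CI, 0.15 in TNF and 0.04 in DEX, and Eif2ak3 had 0.02, 0.12 and -0.12.

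Xbp1 encodes the transcription factor whose mRNA is spliced by IRE1α, and the intensities do not tell the spliced from the unspliced form. It was at 6270.2 and 4524 in the CI arrays, 4785, 5041 and 4163 in TNF and 6204, 5769 and 5865 in DEX, against 5046, 4701 and 3970.2 in control. The DEX arrays lay above control, and the CI arrays were far apart, with 1 above every DEX array and 1 within the control range. Against control the log2 fold change was 0.38 (SE 0.11, adjusted p = 0.0168) in DEX and 0.23 (SE 0.123, adjusted p = 0.248) in CI. The DEX call was lost without control replicate 3 (adjusted p = 0.0805) or DEX replicate 1 (0.0576) or with its probe sets averaged (0.0758), and CI passed without CI replicate 2 (0.46, adjusted p = 0.0274). Ppp1r15a (GADD34), which directs a phosphatase to eIF2α and so lets translation resume, was at 777 and 894 in the CI arrays, 731, 677 and 532 in TNF and 939, 939.95 and 750.04 in DEX, against 646, 651 and 532 in control. CI and DEX arrays lay above control, and TNF overlapped it. The log2 fold change was 0.45 (SE 0.129, adjusted p = 0.0268) in CI and 0.51 (SE 0.116, adjusted p = 0.00377) in DEX. The CI call was lost without control replicate 3 (0.0856), CI replicate 1 (0.0551) or CI replicate 2 (0.208).

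The degradation genes held the only 2 members that passed in all 3 comparisons with control, both higher in CI and lower in TNF and DEX. How many of all genes passed in all 3 was not counted. Edem1, which marks misfolded glycoproteins for removal, was at 2581 and 3117 in the CI arrays, 1703, 1671 and 1912 in TNF and 1693, 1715 and 1744 in DEX, against 2063, 2154 and 2063 in control. The 4 groups separated into CI above control and TNF and DEX below it, with no overlap with control. In the fit the log2 fold change was 0.44 (SE 0.0785, adjusted p = 0.00143) in CI, -0.25 (SE 0.0703, adjusted p = 0.0176) in TNF and -0.28 (SE 0.0703, adjusted p = 0.00689) in DEX. Its other probe set moved the same ways and passed in each, at 0.32, -0.48 and -0.53. Syvn1 encodes HRD1, the ubiquitin ligase of the degradation channel, and was at 2755 and 2746 in the CI arrays, 1889.7, 1720.1 and 1809 in TNF and 2019.7, 2001 and 1928 in DEX, against 2261, 2231 and 2257 in control. CI lay above control, DEX below control and TNF below DEX, with no overlap between any of the groups. Fitted log2 fold changes were 0.29 (SE 0.0576, adjusted p = 0.00305) in CI, -0.32 (SE 0.0515, adjusted p = 0.000365) in TNF and -0.18 (SE 0.0515, adjusted p = 0.016) in DEX. The DEX call was lost without DEX replicate 3 (adjusted p = 0.0601). With its probe sets averaged, Syvn1 passed neither in CI (0.17, adjusted p = 0.143) nor in DEX (-0.18, adjusted p = 0.0525), so that only Edem1 passed in all 3 comparisons under that setting. Sel1l, the partner of HRD1, did not pass and had 0.09 in CI, 0.15 in TNF and 0.02 in DEX.

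Herpud1, which gathers parts of the degradation channel, was at 2315 and 2027 in the CI arrays, 2238, 1807 and 1986 in TNF and 2521, 2591 and 2201 in DEX, against 2071, 1647 and 1772 in control. The DEX arrays lay above control and the CI and TNF arrays overlapped it. The log2 fold change in DEX was 0.41 (SE 0.0952, adjusted p = 0.00417), and in CI it was 0.25 (SE 0.106, adjusted p = 0.132), which passed without control replicate 1 (adjusted p = 0.0487). Of the 3 derlins, membrane proteins of the channel, Derl1 and Derl2 were lower in DEX and Derl3 was not, where 13.6% of all genes were lower. Derl1 was at 5932 and 6217 in the CI arrays, 6395, 6047 and 6034 in TNF and 5577, 6014 and 5477 in DEX, against 6709.6, 7074 and 6505 in control. All treated arrays lay below control, and the decrease passed in DEX, at -0.25 (SE 0.0568, adjusted p = 0.00389), but not in CI, at -0.15 (SE 0.0635, adjusted p = 0.116), or TNF, at -0.13 (SE 0.0568, adjusted p = 0.099). With its probe sets averaged, Derl1 also passed as lower in TNF (-0.16, adjusted p = 0.0288). Derl2 was at 2008 and 1805 in the CI arrays, 1582, 1704 and 1761 in TNF and 1560.1, 1677 and 1519 in DEX, against 1908, 1878 and 1827 in control. Its DEX arrays lay below control, at -0.24 (SE 0.0615, adjusted p = 0.00897), while its second, dimmer probe set had 0.11 in DEX without passing and rose in TNF, at 0.20. The average of its probe sets did not pass in DEX (-0.06, adjusted p = 0.372). With quantile normalization, Derl2 passed as lower in TNF (-0.21, adjusted p = 0.0162). Derl3 had 0.01, -0.12 and 0.12 in CI, TNF and DEX and Edem2, a relative of Edem1, had -0.12, -0.02 and -0.16, with none passing.

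The translocation genes code for the channel through which proteins enter the ER. None of the 3 passed against control. Sec61a1, the pore subunit, Sec61b, a small subunit, and Ssr1, a subunit of the adjoining TRAP complex, had 0.19 (adjusted p = 0.075), 0.22 (0.0779) and 0.12 (0.187) in CI. In DEX they had -0.06, -0.17 and -0.10, and in TNF 0.09, 0.10 and 0.05. Each lay higher on both CI arrays than on every control array. Sec61a1 passed as higher in CI with its probe sets averaged (0.19, adjusted p = 0.00924) or without DEX replicate 2 (0.046). Sec61b passed in CI with only the CI and control arrays (0.0324) or without DEX replicate 2 (0.0238). Without DEX replicate 2, Sec61b also passed as lower in DEX (-0.26, adjusted p = 0.00754). Of the other 5 Sec61a1 probe sets, 3 passed as higher in CI, while an Ssr1 probe set other than the brightest passed as lower in CI (-0.37) and higher in DEX (0.44).

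The treatments were also set against each other. Between DEX and CI, 2 of the 33 genes were higher in DEX (17.1% of all genes) and 14 lower (16.9%), with a median of -0.10, against 0.01 for all genes. The largest decrease was that of Edem1, 1717 ± 25.9 in DEX and 2849 ± 379 in CI (SD, n = 3 and 2), a log2 difference of -0.72 (SE 0.0785, adjusted p = 3.63e-06). Dnajc3 (-0.57 (SE 0.0851, adjusted p = 7.98e-05)), Hspa5 (-0.51 (SE 0.0654, adjusted p = 1.72e-05)), Syvn1 (-0.47 (SE 0.0576, adjusted p = 1.2e-05)) and Dnajb11 (-0.41 (SE 0.0578, adjusted p = 5.04e-05)) followed. All 3 translocation genes were among the lower ones, with Sec61b at -0.39 (SE 0.0813, adjusted p = 0.00147), Sec61a1 at -0.25 and Ssr1 at -0.22. The others were Ero1l (-0.31), Ero1lb (-0.30), Derl2 (-0.26), Canx (-0.25), Creld2 (-0.25) and Manf (-0.23). Higher in DEX than in CI were Atf6 (0.59 (SE 0.0748, adjusted p = 1.61e-05)) and Pdia4 (0.34 (SE 0.0606, adjusted p = 0.000432)). Pdia6 and Ppp1r15a, higher than control in both treatments, differed between DEX and CI by 0.04 (95% interval -0.10 to 0.17) and 0.06 (-0.21 to 0.34). Without CI replicate 1, 10 genes passed: Canx, Ero1lb, Creld2, Manf, Derl2, Sec61a1 and Ssr1 no longer did, with adjusted p of 0.0647 for Ero1lb to 0.401 for Manf, and Xbp1 did (0.39, adjusted p = 0.0304). Ero1l did not pass without CI replicate 2 (0.183), Creld2 without DEX replicate 3 (0.0916) and Manf without DEX replicate 1 (0.109) or 3 (0.101). With only the DEX and CI arrays, Creld2 (0.063) and Manf (0.0801) did not pass, nor did Manf with the replicate number as a block (0.0505). When the probe sets of a gene were averaged, Pdia4 (0.12, adjusted p = 0.0812), Atf6 (0.12, adjusted p = 0.078), Ero1lb (-0.10, adjusted p = 0.0987) and Derl2 (-0.050, adjusted p = 0.557) did not pass, and Ssr1 turned to 0.087 (adjusted p = 0.238).

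Of the 12 matched genes whose window held an element, 7 were lower in DEX than in CI and 0 higher. Of the 16 matched genes without one, 5 were lower and 1 higher (16.9% and 17.1% of all genes). Against control, 5 of the 12 and 3 of the 16 were higher in CI (8.38% of all genes). In DEX 2 of the 12 were higher and 3 lower, and 4 of the 16 higher and 3 lower (14% and 13.6%). In TNF 0 were higher (13.9%), and 1 of the 12 and 1 of the 16 lower (11.2%). Between TNF and CI, 0 of the 12 were higher in TNF and 6 lower, and 1 of the 16 higher and 3 lower (18.9% and 17.3%). Between DEX and TNF, 3 of the 12 were higher in DEX and 2 lower, and 4 of the 16 higher and 4 lower (18% and 18.2%). Among the genes with an element, Calr, Hsp90b1, Pdia6, Derl3 and Herpud1 did not pass the test between DEX and CI. These counts are a description of the windows searched, and their difference was not tested.

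**Figure D4:**
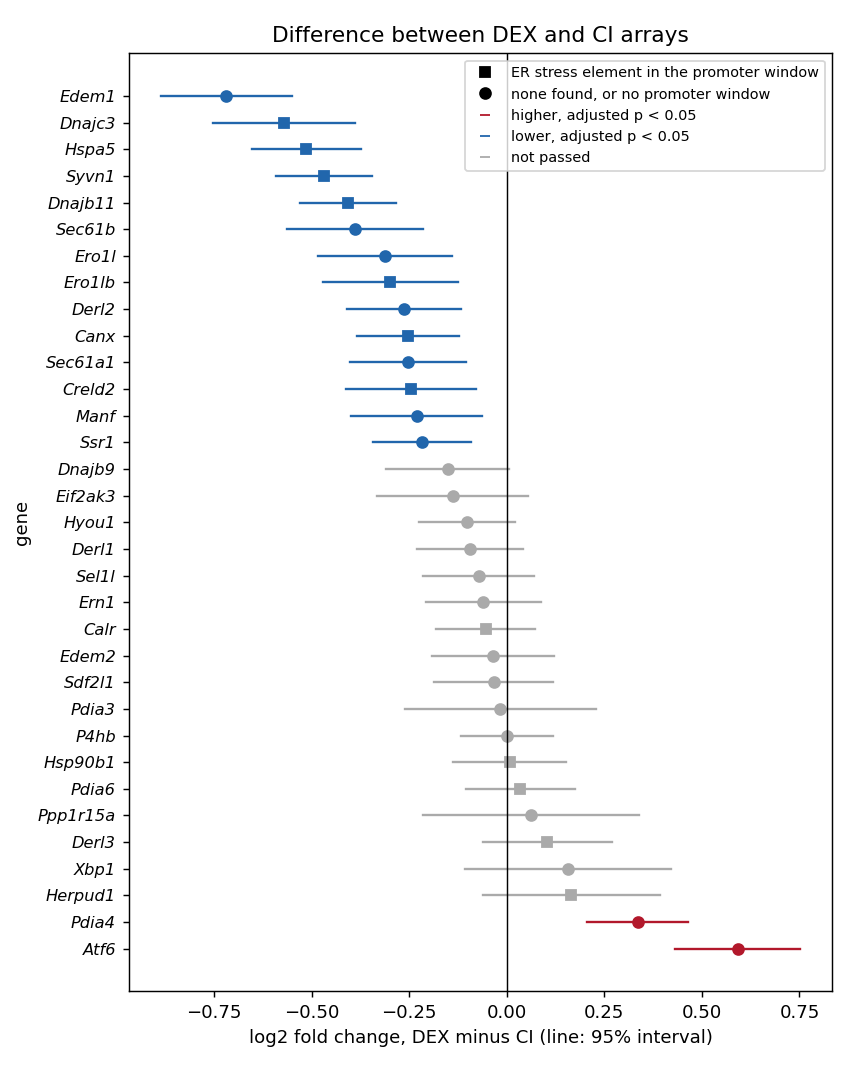
Log2 difference of DEX minus CI with its 95% interval for the 33 genes in order of size. Squares are genes with an ER stress element or element II in the promoter window. Circles are genes where none was found or that had no window, and colours give the call. The 14 blue genes run down to Edem1 at -0.72, and Pdia4 and Atf6 are the 2 red ones.

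TNF and CI differed in 10 genes, 1 higher in TNF (18.9% of all genes) and 9 lower (17.3%), with a median of -0.10 against -0.03 for all genes. The higher gene was Pdia3, at 5182, 5185 and 4540.4 in TNF and 3499 and 4286 in CI, a difference of 0.36 (SE 0.114, adjusted p = 0.0248) that did not pass without CI replicate 1 (0.278) or without TNF replicate 1 (0.0725) or 2 (0.0734). Lower in TNF were Ero1l (-0.76 (SE 0.0806, adjusted p = 3.69e-06)), Edem1 (-0.68 (SE 0.0785, adjusted p = 7.65e-06)) and Syvn1 (-0.60 (SE 0.0576, adjusted p = 1.33e-06)), then Dnajc3 (-0.43), Ppp1r15a (-0.37), Hspa5 (-0.31), Dnajb11 (-0.28), Ero1lb (-0.26) and Canx (-0.18). Ppp1r15a did not pass without CI replicate 2 (0.26) or TNF replicate 3 (0.136), Canx without CI replicate 1 (0.252) or TNF replicate 1 or 2 (0.067 and 0.0924), nor Ero1lb without any one of the CI arrays (0.106 and 0.0761) or of TNF replicates 1 and 2 (0.0767 and 0.0542). With probe sets averaged, Pdia3 (0.09, adjusted p = 0.388), Canx (-0.13, adjusted p = 0.0792) and Ero1lb (-0.10, adjusted p = 0.0909) did not pass. Median centring ended the call of Ppp1r15a (0.0583) and of Canx (0.0764), as did, for Canx, only the TNF and CI arrays (0.05).

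DEX and TNF differed in 14 genes, 8 higher in DEX (18% of all genes) and 6 lower (18.2%), with a median of -0.10 against 0.04 for all genes. The higher genes were the 7 that were higher in DEX than in control and Derl3. Ero1l (0.45 (SE 0.0721, adjusted p = 0.000185)), Ppp1r15a (0.43 (SE 0.116, adjusted p = 0.00913)), Atf6 (0.42 (SE 0.0669, adjusted p = 0.000157)) and Xbp1 (0.35 (SE 0.11, adjusted p = 0.0213)) differed most. Pdia4, Pdia6, Herpud1 and Derl3 had 0.23, 0.17, 0.28 and 0.23. Lower in DEX than in TNF were Pdia3 (-0.37 (SE 0.102, adjusted p = 0.0107)), Sec61b (-0.27 (SE 0.0728, adjusted p = 0.00999)), Creld2 (-0.26 (SE 0.0692, adjusted p = 0.00929)), Eif2ak3 (-0.24), Hspa5 (-0.21) and Ssr1 (-0.15). Without DEX replicate 1 the count was 8, and without TNF replicate 3 it was 9. Ero1l, Pdia4, Ppp1r15a, Atf6, Creld2 and Sec61b passed in all 20 alternative settings, and each of the other 8 lost the call when 1 or more single arrays of DEX or TNF were left out, with adjusted p from 0.0527 for Eif2ak3 without DEX replicate 2 to 0.146 for Eif2ak3 without TNF replicate 3. Ssr1 also lost it without control replicate 2 (0.0516) or 3 (0.0524), and turned to 0.016 when its probe sets were averaged. That average also ended the calls of Pdia6 (0.09, adjusted p = 0.163), Eif2ak3 (-0.06, adjusted p = 0.279), Xbp1 (0.0608) and Herpud1 (0.0642). Median centring ended those of Pdia6 (0.0716) and Herpud1 (0.0669), quantile normalization those of Eif2ak3 (0.102) and Ssr1 (0.0673), and only the DEX and TNF arrays that of Ssr1 (0.077). Edem1, lower than control in both treatments, had a difference of -0.03 (95% interval -0.18 to 0.12).

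Since 24 of the 33 genes have more than 1 probe set (84 in all), every probe set was also read on its own, over 33782 probe sets and by a choice made after the data were seen. For genes that passed against control, 9 of 11 other probe sets had the direction of the brightest one in CI and 4 of them passed. In TNF it was 2 of 2 with 1 passing, and in DEX 14 of 18 with 8 passing. No other probe set of these genes passed in the opposite direction in those comparisons. Adjusted over all probe sets, the brightest one of Pdia6 in CI (adjusted p = 0.0543) and those of Dnajb9 (0.0529) and Dnajb11 (0.0545) in DEX no longer passed. Between DEX and CI, 18 of 26 had the same direction, 10 passed, and 2 passed the opposite way, 1 of Atf6 (-0.25) and 1 of Ssr1 (0.81). Between TNF and CI, 11 of 15 had the same direction, 4 passed, and 0 passed the opposite way. Between DEX and TNF the counts were 15 of 17, 6 and 1. The brightest probe sets of Ppp1r15a between TNF and CI (adjusted p = 0.0512) and Ssr1 between DEX and TNF (0.052) no longer passed over all probe sets.

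**Figure D5:**
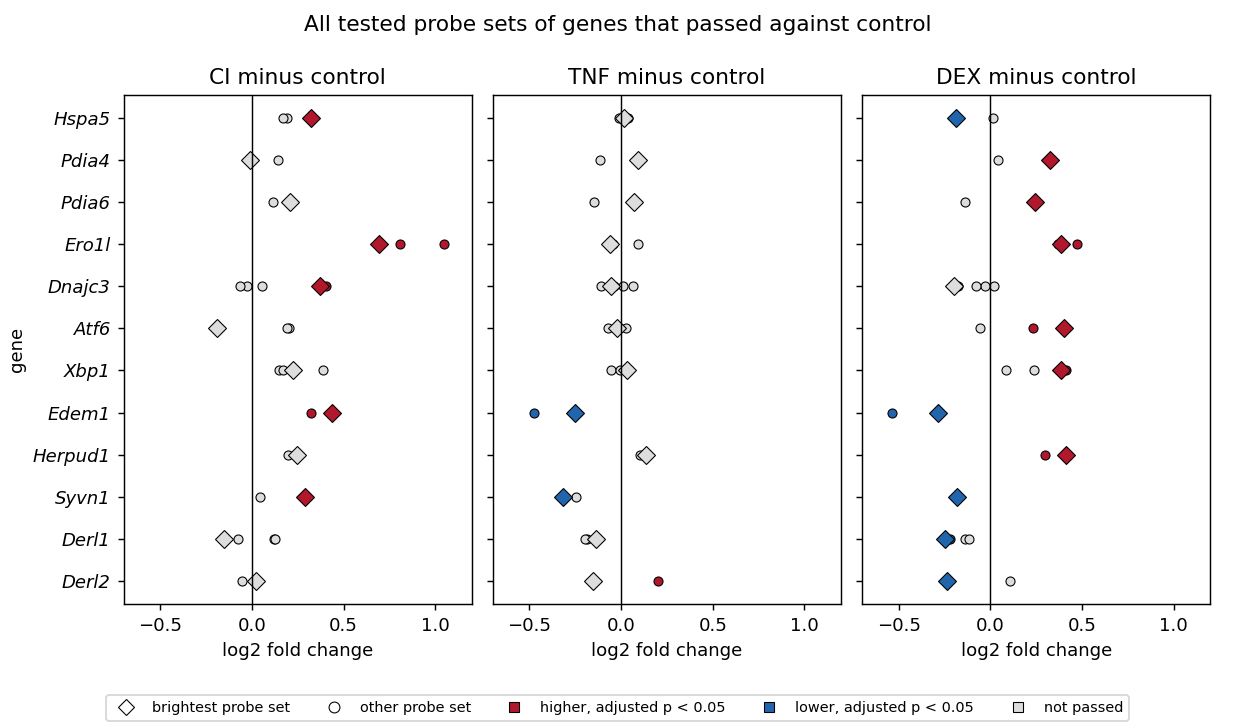
Log2 fold change against control of every tested probe set of the 12 genes that passed against control and have more than 1 probe set; diamonds are the brightest probe set, circles the others, and colours give the call over 33782 probe sets. All 3 Ero1l probe sets are red in CI and DEX, and both Edem1 probe sets are red in CI and blue in TNF and DEX.

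Other genes of the same pathways were read from 7 lists with 126 genes tested. In total 21 were higher and 14 lower in CI, 27 and 7 in TNF, and 19 and 25 in DEX, or 16.7% and 11.1%, 21.4% and 5.56%, and 15.1% and 19.8% of the 126. The same shares over all genes tested were 8.38% and 8.88% in CI, 13.9% and 11.2% in TNF, and 14% and 13.6% in DEX. In the ATF4 and CHOP branch, 6 of 16 genes were higher and 1 lower in CI, with a median of 0.29 against 0.01 for all genes. Chac1 (0.76), Trib3 (0.72), Sesn2 (0.53) and Ppp1r15b (0.47), which also serves the eIF2α phosphatase, were among the higher ones. In TNF 2 of the 16 were higher, Ddit3 (0.46), which encodes CHOP, and Cebpb (0.39), and 1 was lower, Eif4ebp1 (-0.26). In DEX 4 were higher and 0 lower, led by Ddit4 (1.44) with Chac1 (0.51), Vegfa (0.41) and Cebpb (0.33). The medians of the 16 were -0.06 in TNF and 0.03 in DEX, against -0.01 and 0.02 for all genes.

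Of 20 other ER folding factors tested, 1 was higher and 5 lower in CI, 6 higher and 0 lower in TNF, and 2 higher and 7 lower in DEX, with medians of -0.02, 0.06 and -0.14. Uggt1, the sensor of glycoprotein folding, was higher in CI (0.29) and in TNF (0.32), and the isomerase Pdia5 was higher in TNF (0.56). The 5 lower in CI were Cnpy2 (-0.55), a member of the canopy family, the prolyl isomerases Fkbp7 (-0.32) and Fkbp11 (-0.22), the nucleotide exchange factor Sil1 (-0.31) and the peroxiredoxin Prdx4 (-0.26). The collagen chaperone Serpinh1 (-0.76) and the prolyl isomerase Fkbp11 (-0.56) were lower in DEX, where the sulfhydryl oxidase Qsox1 was higher (0.71). The collagen gene Col1a1, of the fibroblast list, was also lower in DEX (-1.36). N-glycosylation genes, which attach sugars to entering proteins, had 7 of 17 higher and 1 lower in TNF, among them Ddost (0.32), a subunit of oligosaccharyltransferase, 2 higher and 0 lower in CI, and 1 higher and 3 lower in DEX.

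Of 19 other ER degradation genes 2 were higher and 1 lower in CI, 2 higher and 3 lower in TNF, and 5 higher and 1 lower in DEX, where the ubiquitin-conjugating enzymes Ube2g2 (0.63) and Ube2j1 (0.43) were higher. The 20 other translocon and signal peptidase genes had 2 higher and 2 lower in CI, with Sec63 at 0.42, 4 higher and 1 lower in TNF, with Spcs3 at 0.56, and 4 higher and 5 lower in DEX. Of 11 other regulators of the response 4 were higher and 2 lower in CI, 4 and 1 in TNF, and 2 and 4 in DEX, and Creb3l1, a transcription factor of the ATF6 kind, was lower in each (-0.34, -0.44 and -0.60). Of 23 genes of transport from the ER to the Golgi 4 were higher and 3 lower in CI, 2 and 0 in TNF, and 1 and 5 in DEX, where the retrieval receptor Kdelr3 (-0.73) and the coat subunit Sec23a (-0.44) were lower.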

How the data were processed

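Expression was measured in 11 samples of 3T3-L1 adipocytes, grouped by their titles. The deposited table gives intensity on a linear scale for 45101 probe sets, in 1 column for each array. Cells were treated and RNA (3 µg) labelled as the labels' protocols state, and the background correction, summarisation and normalization are not given in the sources used here. Array medians of 124.5 to 129.5 and log2 quartiles within 0.0765 of each other led to no further scaling. Of the probe sets, 64 were controls, and 34945 had 1 gene symbol, 932 several and 9160 none in the platform annotation. The symbols of 34741 were matched to RefSeq by identifier, and Ero1l and Ero1lb are written Ero1a and Ero1b there.

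Each gene was represented by its brightest probe set, by the mean over the 11 arrays, on the scale log2(intensity + 16), where fold changes of dim genes are understated. Genes whose mean fell under the 25th percentile of probe set means (51.7) were left out. Levels were not compared between genes. The 6 comparisons were tested two-sided with limma 3.58.1 in R 4.3.3 on all 11 arrays (7 residual and 7.59 prior degrees of freedom), with Benjamini-Hochberg adjustment over 15623 genes and a threshold of 0.05. The fit was tested on simulated data. Errors beside intensities are SDs, and those beside log2 fold changes standard errors of the fit.

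The genes, the lists and the tests were chosen with earlier results of these data known. All 33 genes are accounted for. Values on every array are given for genes that passed against control. From each list up to 4 genes per comparison are named by the smallest adjusted p among those that passed. Beyond that rule, Sil1 and Fkbp11 are named in CI, so that all 5 lower folding factors are given there. Alternatives were other pseudocounts (1 and 64), other dim filters, quantile normalization, median centring, the mean of all probe sets, only the groups compared, a replicate block, and each array left out.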

Additional observations from a re-analysis of the deposited data

How the results depend on the processing

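The counts of genes past the threshold were recomputed under 9 other settings and with each of the 11 arrays left out. Genes higher in CI numbered 6 to 9 under the 9 settings (8 as reported) and 5 to 10 with an array left out, and genes lower in CI were 0 throughout. Genes higher in TNF (0 as reported) numbered 1 with a pseudocount of 64, 2 with median centring, 1 with the mean of all probe sets, 2 with only the 2 groups compared, 1 with the replicate number as a block, and 0 to 2 with an array left out. Those genes were Hsp90b1, Creld2 and P4hb, and, without control replicate 1, Pdia3 and Ern1. Genes lower in TNF numbered 2 to 3 and, with an array left out, 1 to 2. In DEX the higher genes numbered 5 to 7 and 6 to 7, and the lower ones 5 to 7 and 4 to 8. TNF against CI gave 8 to 12 and 7 to 11 genes, DEX against CI 12 to 16 and 10 to 16, and DEX against TNF 10 to 17 and 8 to 14. Among values that passed as reported or under the other setting, those that changed sign did so with the mean of all probe sets: Derl1 between TNF and CI (-0.16, adjusted p = 0.0315), and Ssr1 between DEX and CI (0.087, adjusted p = 0.238) and between DEX and TNF (0.016, adjusted p = 0.806). That setting averages probe sets that differ in direction, as those of Ssr1 do. The cause of the other shifts was not tested. Calls made under all 20 settings were 4 of 8 in CI, 1 of 2 in TNF and 7 of 14 in DEX, then 6 of 10 between TNF and CI, 6 of 16 between DEX and CI and 6 of 14 between DEX and TNF. Of 15 pairs of same-numbered arrays of different groups, 6 had deviations that correlated over 0.1 (range -0.29 to 0.34). Of 30 other pairs, 8 did (-0.35 to 0.29), and 6 of 11 arrays correlated best with their own number. Since not every same-numbered pair passed 0.1, the numbers were not taken to pair the samples. Among control, TNF and DEX, pairs of replicate 1 had 0.29, 0.28 and 0.22, and pairs of replicate 3 had 0.34, 0.11 and 0.06. Pairs of replicate 2 had 0.01, 0.02 and -0.17. The 2 CI arrays deviate from their mean by equal and opposite amounts, so their pairs mirror each other. The rule cannot detect an effect shared by only some numbers, which was not tested apart from the replicate block. With 1 CI array left out, the spread of the remaining one was taken from the other groups. Ero1lb, Sdf2l1 and Derl3 were the dimmest of the 33 genes, and how far background signal limits them was not tested.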
